A study of Macaca mulatta with 2 samples.

Results

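Astrocytes are glial cells of the cortex that clear glutamate from synapses, move water, potassium and bicarbonate, join into networks through gap junctions, and secrete proteins that act on synapses and matrix. After injury or inflammation they can become reactive, which is commonly read from intermediate filament and acute phase genes. A set of 39 genes covering astrocyte identity, transport and reactivity was taken by name from a table of 33618 genes of rhesus macaque prefrontal cortex. All 39 were listed there, and the rule matched gene names without using their values. The list itself was chosen with earlier results of these data known.

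The table held 1 library from a control animal, PFC CON 1, and 1 library from an animal exposed to sevoflurane, PFC SEV 1. By the labels both were rhesus macaques at postnatal day 28, and bulk total RNA was taken from the prefrontal cortex. The exposed animal inhaled 2.5 to 3% sevoflurane, a volatile anesthetic, for 4 h on about postnatal days 7, 14 and 28, although the paper's methods place the later exposures on other days and the tissue collection right after the last one. How the control animal was handled is not stated in the sources used here. The study describes 3 animals per group, and the others were not analysed here. Each value therefore compares 2 libraries and not 2 conditions, with no replicate check and no p-value. The control group was female and the exposed group of mixed sex by the methods, and the reads on 7 listed Y-linked genes numbered 3 for the control and 4308 for the exposed animal, so animal, sex and exposure cannot be told apart.

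The depth was 16960880 control and 9839105 sevoflurane reads on genes. They were expressed as CPM, reads per 1000000 after scaling of the library sizes by edgeR's TMM method, and log2 ratios (sevoflurane over control) were taken with a prior count of 2, which draws the ratios of genes with few reads toward 0. The interval given with a ratio is its 95% counting interval, from the exact Clopper-Pearson method applied to the share of a gene's reads that the sevoflurane library held. It covers counting error only, and not the variation between animals. A gene was called lower or higher when its ratio was at least 2-fold and the interval excluded equal expression. It was said to hold when the whole interval lay within 1.5-fold in either direction. Because CPM depends on transcript length, levels were compared between the libraries for the same gene and not between genes. In bulk tissue, fewer cells of a type and less RNA per cell cannot be told apart.

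All 39 genes had at least 1 CPM in a library and entered the comparison with 18050 genes in all. Of the 39, 4 were called lower, or 10.3%, beside 5.47% of all tested genes. None was called higher, against 7.56% of all tested genes. The 4 lower genes were the filament gene GFAP, the water channel AQP4, the hyaluronan receptor CD44 and the secreted glycoprotein CHI3L1. The expression held within 1.5-fold in 17 of the 39, or 43.6%, near the 41.0% of all tested genes. The other 18 lay in between. Among genes whose mean reached 5 CPM, where intervals are narrower, 4 of 36 were called lower (11.1%) and 17 held (47.2%), while the shares over all such genes were 3.03% lower, 3.19% higher and 56.8% held.

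The median log2 ratio of the 39 was -0.13, beside -0.005 over all tested genes, with quartiles at -0.58 and 0.21. The interval lay below equal expression for 20 of the 39 (51.3%, against 28.1% of all tested genes) and above it for 10 (25.6%, against 28.4%), and 9 straddled it. The astrocyte genes thus spread to both sides. Whether an interval excludes equal expression depends on the number of reads, and 23 of the 39 had a mean of at least 50 CPM. These shares were not compared with genes of like level. By sign alone, 24 of the 39 ratios were below 0, against 9088 of the 18050 tested genes. The 39 genes together took 1.13% of the control reads and 0.963% of the sevoflurane reads, or 11360 and 9537 CPM. GFAP alone was at 2121 and 832 CPM, a difference that equals 70.5% of the net difference in that sum. Without GFAP the sums were 9243 and 8705 CPM.

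**Figure D1:**
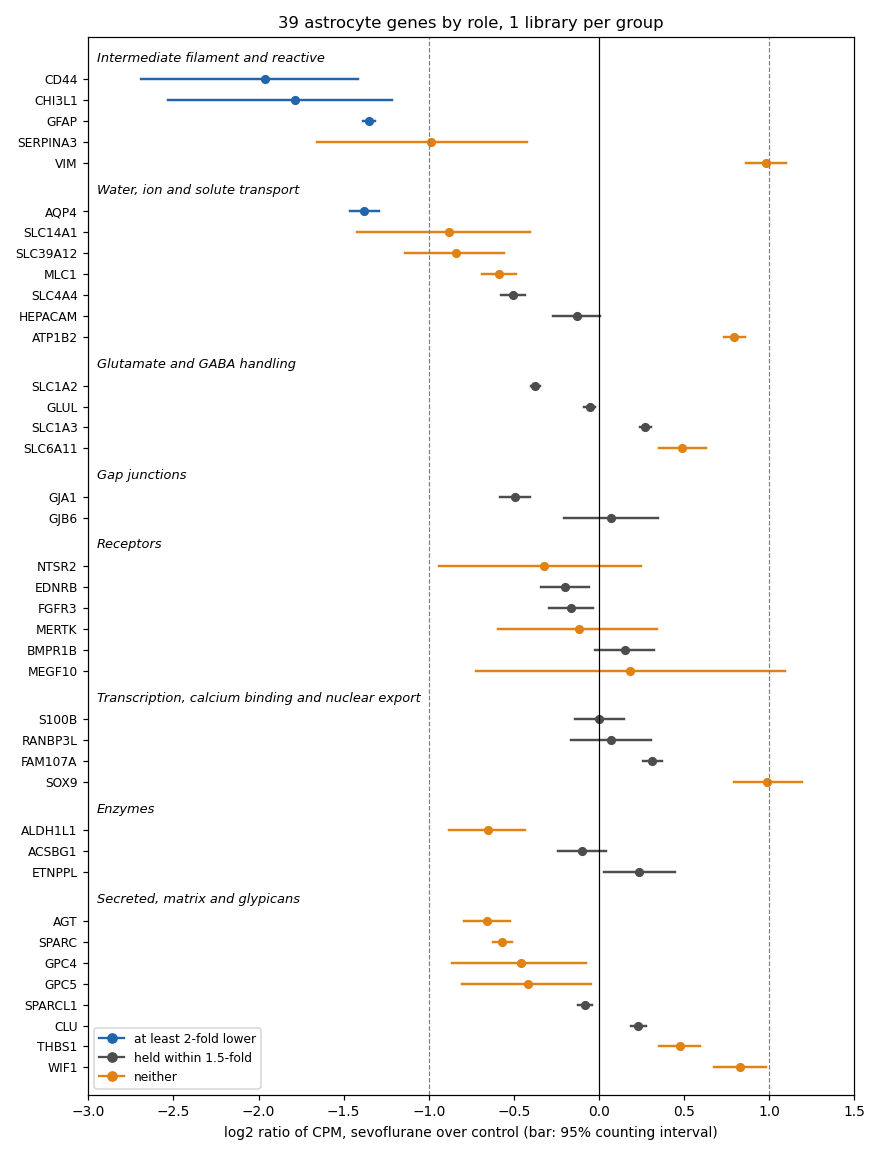
Log2 ratio of CPM, sevoflurane over control, for the 39 astrocyte genes in 8 groups by role, with 1 library per group. Points are ratios, bars are 95% counting intervals, dashed lines mark 2-fold, and colors mark the calls. The 4 genes called lower (GFAP, AQP4, CD44 and CHI3L1) lie left of the dashed line at -1, and VIM and SOX9 lie just under the line at 1.

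The intermediate filament and reactive genes were the group with the lowest median, -1.35 over 5 genes, and 3 of the 5 were called lower. GFAP, the main filament protein of mature and reactive astrocytes, had 35639 control and 8263 sevoflurane reads. Its log2 ratio was -1.35 (interval -1.39 to -1.32), a 2.55-fold lower CPM that ranked as the 563rd lowest of the 18050 tested genes. CD44, a hyaluronan receptor found on fibrous and reactive astrocytes and on several other cell types, had 172 and 25 reads, and its ratio of -1.96 (-2.69 to -1.41) was the lowest of the 39. CHI3L1, a secreted glycoprotein of reactive astrocytes, had 146 and 24 reads and a ratio of -1.78 (-2.53 to -1.22). For these 3 genes the CPM was between 2.55-fold and 4.07-fold lower in the sevoflurane library.

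The remaining pair of this group lay next to the threshold on opposite sides. SERPINA3, an acute phase protease inhibitor, had 103 control and 30 sevoflurane reads, with a ratio of -0.99 (-1.66 to -0.42). It was called lower with a prior count of 0.5 (-1.01) or with the control library sampled down (-1.16). VIM, the filament vimentin of immature and reactive astrocytes and of vascular cells, had 1081 and 1262 reads and a ratio of 0.98 (0.86 to 1.10). VIM was called higher when library totals were used in place of TMM (1.01) and when ratios were centred on other astrocyte genes (1.26). The 5 genes of this group thus did not share a direction. VIM is also known from meningeal and mural cells. Of 7 meningeal fibroblast markers, 3 were called higher (summed level 215.8 control and 435.1 sevoflurane CPM). Of 7 mural cell markers, the contractile genes ACTA2 (1.24) and MYH11 (1.96) were called higher (444.8 and 494.5 CPM). Those shares were 42.9% and 28.6%, against 7.56% of all tested genes. None of either list was called lower or was at 0 reads, and their part in the VIM reads was not tested. Within the control library there were 33.0 GFAP reads for each VIM read, and within the sevoflurane library 6.55, a ratio that needs no scaling and was 5.03-fold lower (0.199 of the control ratio, interval 0.183 to 0.216). The ratio of CD44 to VIM reads was 0.125 of its control value (0.0812 to 0.191). Both ratios join the lower CPM of GFAP (2.55-fold) or CD44 (4.07-fold) to the 1.975-fold higher CPM of VIM. These gene combinations were not part of the plan.

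Markers of oligodendrocytes, the myelinating cells, were lower as well. Of 12 oligodendrocyte markers, 10 were called lower (83.3%, against 5.47% of all tested genes) and none higher, with a median of -1.24. Their summed level was 4290 control and 2084 sevoflurane CPM, with none at 0 reads. Their part in the lower GFAP, CD44, CHI3L1 and AQP4 reads was not tested.

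The water, ion and solute transport genes held 1 gene called lower and 2 that held among 7. AQP4, the water channel of astrocyte endfeet on blood vessels, had 6178 control reads and 1404 sevoflurane reads. The ratio was -1.38 (-1.46 to -1.30), so that the sevoflurane level was 38.5% of the control level. Genes tied to AQP4 by location or function differed less. MLC1, an endfoot membrane protein, had 2836 and 1115 reads (-0.59, -0.69 to -0.49), while HEPACAM, the adhesion molecule that binds MLC1, had 1228 and 664 reads and held (-0.13, -0.27 to 0.01). The ratio of AQP4 to MLC1 reads in the sevoflurane library was 0.578 of that in the control (0.528 to 0.633), so AQP4 differed more than MLC1.

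The solute carriers of this group lay below equal expression. SLC39A12, a zinc transporter, had 395 control and 130 sevoflurane reads, with a ratio of -0.84 (-1.14 to -0.56). SLC14A1, the urea transporter, had 139 and 44 reads and a ratio of -0.88 (-1.42 to -0.40). SLC4A4, the sodium bicarbonate cotransporter that regulates pH, had 5826 and 2425 reads and held narrowly at -0.51 (-0.58 to -0.44). These 3 transporters were lower beyond counting error and under 2-fold. ATP1B2, the beta subunit of the sodium pump also known as an adhesion molecule on glia, went the other way, with 4093 and 4200 reads and a ratio of 0.80 (0.73 to 0.86).

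Among 9 tested genes for AQP4 partners and endfoot channels, 6 held (66.7%, against 41.0% of all tested genes). None was called lower (against 5.47%), and 1 was called higher (11.1%, against 7.56%). Genes of the complex that anchors AQP4 to the basal lamina were among those that held. They included DAG1, which encodes dystroglycan (0.15), DTNA, dystrobrevin (-0.03), and UTRN, utrophin (-0.04). KCNJ10, the inward rectifier potassium channel of the endfoot, had 2438 and 1896 reads and held at 0.40 (0.31 to 0.48).

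The genes for glutamate and GABA handling held in 3 of 4 cases, and all 4 lay within 1.5-fold by the ratio itself. SLC1A2, the main glutamate transporter of cortical astrocytes, had 37966 control and 17317 sevoflurane reads (-0.37, -0.40 to -0.35). SLC1A3, the other glutamate transporter of astrocytes, had 18125 and 12938 reads (0.27, 0.24 to 0.31). GLUL, the glutamine synthetase that converts the glutamate taken up, had 20075 and 11417 reads and a ratio of -0.06 (-0.09 to -0.02). The transporters thus differed in opposite directions around a near-equal GLUL. The ratio of SLC1A3 to SLC1A2 reads was 0.477 among control reads and 0.747 among sevoflurane reads, 1.56-fold higher (interval 1.52 to 1.61). SLC6A11, the GABA transporter of astrocytes, had 948 and 787 reads, and its ratio was 0.49 (0.35 to 0.63), with only the upper end of the interval outside the held range.

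Of 14 tested genes that work beside them in the glutamate and glutamine cycle, 10 held (71.4%, against 41.0% of all tested genes). None was called lower (against 5.47%), and 1 was called higher (7.14%, against 7.56%). SLC38A3, which exports glutamine from astrocytes, had a log2 ratio of 0.35 (0.20 to 0.50), and SLC38A5, a related carrier, one of -0.21 (-0.42 to 0.004). The call was SLC17A6, a vesicular glutamate transporter of neurons, with 392 control and 772 sevoflurane reads (1.73, 1.56 to 1.92).

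Both gap junction genes held. GJA1, connexin 43, had 3690 control and 1550 sevoflurane reads and a ratio of -0.49 (-0.58 to -0.41), close to the edge of the range. GJB6, connexin 30, had 283 and 176 reads and a ratio of 0.07 (-0.21 to 0.35). The ratio of GJB6 to GJA1 reads was 1.48-fold higher in the sevoflurane library (1.22 to 1.80). Of 8 other tested junction genes, 2 held, none was called lower and 1 was called higher. That was GJB2, connexin 26, with 3 and 32 reads (3.36, 2.50 to 6.53), a connexin also known from meningeal cells, and it entered the comparison only through its sevoflurane reads. The part of the meningeal fibroblast markers, given above beside VIM, in the GJB2 reads was not tested.

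**Figure D2:**
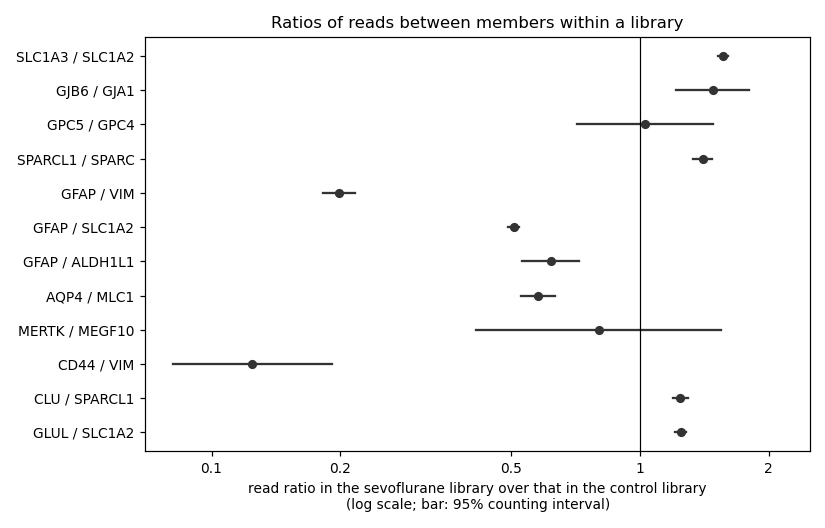
Ratio of reads between 2 astrocyte genes in the sevoflurane library divided by the same ratio in the control library, on a log axis, for 12 gene combinations. Bars are 95% counting intervals, and a value of 1 means no difference. The ratios to VIM, whose own CPM was 1.975-fold higher, lie lowest (0.125 for CD44 and 0.199 for GFAP). That of SLC1A3 to SLC1A2 lies highest at 1.56, and the intervals for GPC5 to GPC4 and MERTK to MEGF10 include 1.

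None of the 6 receptor genes was called, and 3 held. FGFR3, the fibroblast growth factor receptor of astrocytes, had 1433 control and 756 sevoflurane reads (-0.16, -0.29 to -0.04). EDNRB, the endothelin receptor, had 1239 and 638 reads (-0.20, -0.34 to -0.06). BMPR1B, a receptor for bone morphogenetic proteins that promote astrocyte differentiation, had 710 and 466 reads (0.15, -0.02 to 0.32). These 3 held. For the other three the reads were too few to place them within 1.5-fold. MERTK, a receptor for engulfment of synapses and debris that microglia also express, had 114 and 62 reads (-0.12, -0.59 to 0.34). MEGF10, the other engulfment receptor, had 28 and 19 reads (0.18, -0.72 to 1.09), and NTSR2, a neurotensin receptor, had 79 and 37 (-0.32, -0.94 to 0.25). At this depth a difference in these genes was not detectable within those limits.

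Of 29 tested ligands, partners and targets of the receptors and secreted proteins, 13 held (44.8%, against 41.0% of all tested genes). Of the same 29, 4 were called lower (13.8%, against 5.47%) and 1 was called higher (3.45%, against 7.56%). On the side of fibroblast growth factor signaling, FGF1, a ligand, had 1076 and 307 reads (-1.05, -1.24 to -0.87). SPRY2 and SPRY4, feedback inhibitors that this pathway induces, had ratios of -1.10 (-1.27 to -0.94) and -1.03 (-1.19 to -0.87). These were 3 of the 4 lower calls, beside the FGFR3 that held. FGF2, another ligand, was at -0.23 (-0.36 to -0.09), and FGF9 at 0.19 (-0.10 to 0.48). The call in the other direction was ID1, a target of bone morphogenetic protein signaling, with 144 and 192 reads (1.16, 0.86 to 1.5), whereas the related astrocyte genes ID3 (-0.46, -0.72 to -0.22) and ID4 (-0.53, -0.72 to -0.35) had ratios below equal expression.

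The partners of the other receptors had no call. Among the ligands of MERTK, GAS6 had 813 and 329 reads (-0.54, -0.74 to -0.36) and PROS1 had 114 and 120 (0.82, 0.45 to 1.22), so the ligands differed in opposite directions. EDN1 and EDN3, the endothelin ligands of EDNRB, had intervals that straddled equal expression, with ratios of -0.09 and 0.20. ECE1, the enzyme that activates endothelin, was at 0.56 (0.46 to 0.66). Neurotensin itself, NTS, was at 0 reads in both libraries, where the limit set by 3 reads was 0.179 CPM for the control and 0.302 CPM for the other library.

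The genes for transcription, calcium binding and nuclear export had no negative ratio among 4, and 3 of them held. S100B, a calcium binding protein of astrocytes and some oligodendrocytes, had 1081 control and 640 sevoflurane reads and was equal on the CPM scale (64.3 and 64.5 CPM). RANBP3L, a nuclear export factor, had 386 and 240 reads (0.07, -0.17 to 0.31). FAM107A, an actin binding protein that glucocorticoids induce, had 6895 and 5069 reads and a ratio of 0.32 (0.26 to 0.37). SOX9, the transcription factor that specifies astrocytes and labels their nuclei, stood apart with 385 and 453 reads. Its CPM was 1.99-fold higher in the sevoflurane library, a ratio of 0.99 (0.79 to 1.19), and it passed the 2-fold threshold only with library totals (1.02) or centred on other astrocyte genes (1.27). SOX9 and GFAP are both used to mark astrocytes, and they differed in opposite directions.

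Among the enzymes, ALDH1L1, the folate enzyme widely used to mark all astrocytes, had 614 control and 230 sevoflurane reads. Its ratio was -0.65 (-0.88 to -0.44). ACSBG1, which activates long-chain fatty acids, had 1162 and 640 reads and held (-0.10, -0.24 to 0.04), as did ETNPPL, which breaks down phosphoethanolamine, with 459 and 320 (0.24, 0.03 to 0.45). The lower ALDH1L1 was thus not matched by the other enzymes. GFAP reads relative to ALDH1L1 reads were 0.619 of the control ratio (0.531 to 0.722), and relative to SLC1A2 reads 0.508 (0.493 to 0.524).

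The 8 secreted, matrix and glypican genes held no call in either direction, with 5 intervals below and 3 above equal expression. AGT, the angiotensin precursor that astrocytes make, had 1678 and 629 reads (-0.66, -0.79 to -0.52). SPARC, a matrix protein of astrocytes, microglia and vessels, had 8569 and 3417 reads (-0.57, -0.63 to -0.51). SPARCL1, the related synapse-forming protein hevin, had 13851 and 7742 reads and held at -0.08 (-0.12 to -0.04). SPARC opposes the synapse-forming action of SPARCL1, and the ratio of SPARCL1 to SPARC reads was 1.40-fold higher in the sevoflurane library (1.34 to 1.47). CLU, the extracellular chaperone clusterin, had 11024 and 7651 reads and held at 0.23 (0.19 to 0.27).

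The synapse-forming factors of this group did not move together. THBS1, thrombospondin 1, had 1274 control and 1046 sevoflurane reads (0.47, 0.36 to 0.59). Its relative THBS2 had 443 and 126 reads and was called lower (-1.05, -1.35 to -0.77), the remaining one of the 4 lower calls among ligands and partners. The thrombospondin receptor CACNA2D1 was at 0.20 (0.14 to 0.26). GPC4, a glypican released by astrocytes that recruits glutamate receptors to synapses, had 182 and 78 reads (-0.46, -0.87 to -0.07). GPC5, another glypican, had 195 and 86 (-0.42, -0.81 to -0.05), and GPC6, which acts like GPC4, had 283 and 92 (-0.85, -1.22 to -0.52). All 3 glypicans lay below equal expression, and the GPC5 to GPC4 ratio did not differ detectably (1.03, 0.713 to 1.49). WIF1, a secreted inhibitor of Wnt signaling, lay highest of the 8, with 682 and 717 reads and a ratio of 0.83 (0.68 to 0.98).

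Among the partners of AGT, the receptor AGTR1 had 3 control reads and 0 sevoflurane reads. ACE, the converting enzyme, was at 0.30 (0.05 to 0.56), and ENPEP, which degrades angiotensin and lies mainly on pericytes, had 236 and 77 reads (-0.85, -1.25 to -0.48).

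**Figure D3:**
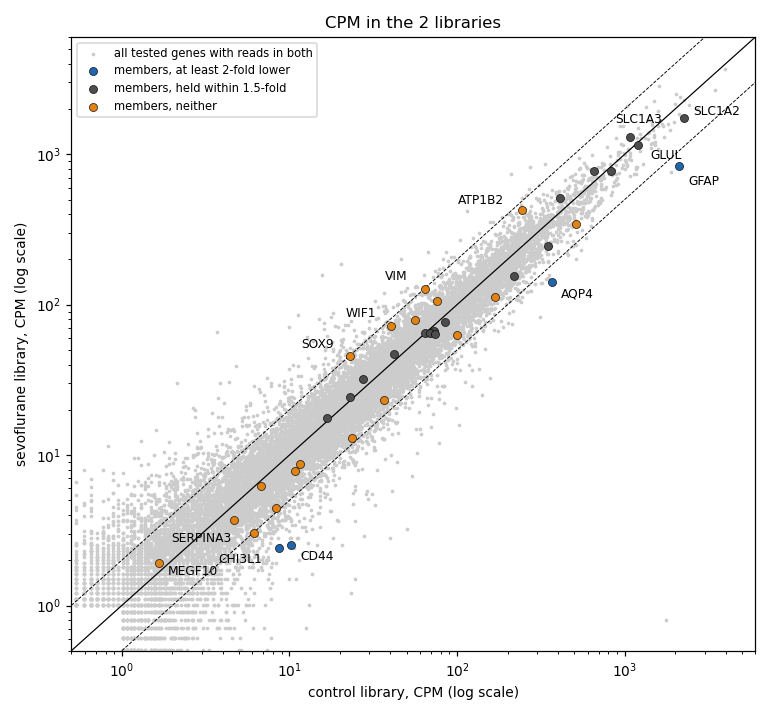
CPM in the control library (x) and in the sevoflurane library (y), both on log axes, for the 39 astrocyte genes over all tested genes with reads in both (grey). The solid line marks equal CPM and the dashed lines 2-fold. GFAP and AQP4 lie below the lower dashed line among abundant genes (2121 to 832 and 368 to 141 CPM), and SOX9, VIM, WIF1 and ATP1B2 lie between the solid and the upper dashed line.

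A further 35 genes known from astrocytes gave a comparison outside the 39. Of the 33 that were tested, 22 held (66.7%, against 41.0% of all tested genes), with a median of -0.28. Of these 33, 1 was called lower and 1 higher (3.03% each, against 5.47% and 7.56%). TNC, the matrix protein tenascin C, had 3869 control reads and 1126 sevoflurane reads and was called lower (-1.02, -1.12 to -0.93). LGR6, a receptor for R-spondins, had 34 and 45 reads and was called higher (1.11, 0.49 to 1.85). The sign of the 4 lower calls among the 39 did not depend on this baseline. Centred on the median of these genes, GFAP was at -1.07, AQP4 at -1.10, CHI3L1 at -1.51 and CD44 at -1.68. On the same baseline SOX9 (1.27), VIM (1.26), WIF1 (1.11) and ATP1B2 (1.07) passed 2-fold on the higher side. This centring raised all ratios alike, and 590 of the 18050 tested genes were then called lower and 2256 higher.

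The other genes of reactive astrocytes lay mostly above equal expression, whereas 4 of the 5 intermediate filament and reactive members lay below it. Of 22 listed, 15 were tested, and 4 of them held (26.7%, against 41.0% of all tested genes). Of the 15, 1 was called lower (6.67%, against 5.47%) and 5 were called higher (33.3%, against 7.56%). Their median log2 ratio was 0.62, with 12 ratios above 0 and 3 below. The interval lay above equal expression for 10 (66.7%, against 28.4% of all tested genes) and below it for 1 (6.67%, against 28.1%). These counts include EMP1, SOCS3 and PTX3, whose limit is given below. STAT3, the transcription factor behind much of the reactive program, held at -0.08 (-0.21 to 0.06), and so did NES, the filament nestin (-0.06, -0.28 to 0.15). Most of the list had few reads. CEBPD, a transcription factor of the acute phase response, had 31 and 74 reads (1.93, 1.39 to 2.67). EMP1, an epithelial membrane protein, had 5 and 32 reads (2.92, 2.07 to 5.15), and SOCS3, the feedback inhibitor of STAT3, had 12 and 21 (1.39, 0.48 to 2.72).

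EMP1 and SOCS3 passed the filter only through the sevoflurane library, and PTX3 only through the control library, so these had to differ, and the calls of this list are given as counts without weight. The other 2 of the 5 were TIMP1, a protease inhibitor (27 and 42 reads, 1.32), and BCL3, a coregulator of the NF-kappaB pathway (18 and 26 reads, 1.18). The single lower call was PTX3, a pentraxin, with 17 and 2 reads and an interval of -5.49 to -0.25. C3, the complement component, had 1891 and 1469 reads (0.39, 0.30 to 0.49), and of 10 microglia markers, which include other complement genes, 1 was called higher, with a median of 0.38. The summed level of the microglia markers was 238.4 control and 266.9 sevoflurane CPM, with none at 0 reads. The markers of meningeal fibroblasts (215.8 and 435.1 CPM) and red blood cells (24.8 and 80.8 CPM) were higher in sum. The part of these cell types in C3 and in the other genes of this list was not tested.

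**Figure D4:**
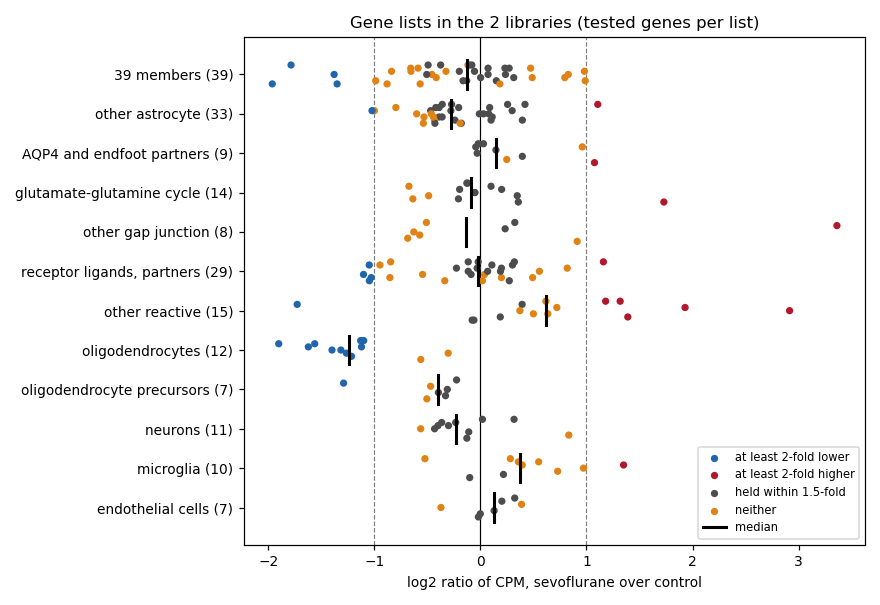
Log2 ratio of CPM, sevoflurane over control, for each tested gene of the 39 astrocyte genes, 6 related lists and 5 lists of markers of other cell types. Points are genes colored by call, black bars are medians, and the number of tested genes stands beside each name. The 39 genes and the other astrocyte genes have medians of -0.13 and -0.28 and the oligodendrocyte markers one of -1.24, while the bar of the other reactive genes includes 3 genes that passed the filter through 1 library only (EMP1, SOCS3 and PTX3) and that of the other gap junction genes includes 1 (GJB2).

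Checked against the tissue label, all 11 neuron markers were above the filter, with 7919 and 7617 CPM in sum, a median of -0.23 and no call in either direction. Endothelial markers had a median of 0.13 and no call among 7. Oligodendrocyte precursor markers had a median of -0.40 with 1 of 7 called lower (14.3%, against 5.47% of all tested genes). Choroid plexus markers summed to 20.4 and 17.1 CPM, but TTR, a defining marker, was called higher with 2 and 31 reads (3.61, 2.74 to 7.82) and CLIC6 lower with 126 and 20 (-1.82, -2.66 to -1.21), while FOLR1 was at 0 control reads and 3 sevoflurane reads. Ependymal markers summed to 34.5 and 27.6 CPM, with FOXJ1 called higher (9 and 16 reads) and CCDC153 lower (17 and 0 reads), each having passed the filter through 1 library only, and TMEM212 at 0 reads in both. Red blood cell markers summed to 24.8 and 80.8 CPM, with 3 of 4 called higher. These were HBB (350 and 672 reads), HBA1 (0 and 70) and ALAS2 (5 and 11). TTR, HBA1 and ALAS2 had passed the filter only through the sevoflurane library. The part of any of these cell types in the ratios of the astrocyte genes was not tested.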

How the data were processed

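The deposited table holds raw counts of reads by gene, as whole numbers, with 1 column per library. The submitters' processing notes name HISAT2 2.0.4. The counting tool, strand setting, genome build and annotation are not given in the sources used here, so no coordinates or sequences are printed, and reads of overlapping or near-identical genes may be split. Columns were matched to groups by the sample titles.

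Genes were tested from 1 CPM upward in at least one of the libraries, and edgeR 4.0.16 in R 4.3.3 gave them TMM factors of 0.991 (control) and 1.01 (sevoflurane). Intervals used scipy 1.17.1, numpy 2.4.6 and pandas 2.3.3 in Python 3.11.15, and plots used matplotlib 3.10.9. Intervals of read ratios between genes were log-normal, from the read counts. The procedure was tested on simulated counts with planted differences. These counts held counting error only and no variation between animals, so they cannot show how the calls would hold in other animals. With 1 library per group no test could be fitted.

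The members, lists, thresholds and gene combinations for read ratios were chosen with earlier results of these data known. All 39 members are named. Of each related list, the 3 highest and the 3 lowest calls are named, with direct partners of members. Other listed genes were named after their values were seen. Results were recomputed with size factors of DESeq2 1.42.0, upper-quartile factors or library totals, with filters of 1 read or a mean of 5 CPM, a prior of 0.5, a control library sampled down to the sevoflurane depth, other thresholds, a 99.9% interval, and centring on other astrocyte genes. The planned sequence comparison was not made, and a few listed genes are not reported by name here.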

Additional observations from a re-analysis of the deposited data

How the results depend on the processing

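GFAP, AQP4, CD44 and CHI3L1 were called lower under every scaling, prior count, filter and depth alternative, with the wider interval and after centring on other astrocyte genes. At 4-fold 0 members were called lower, although CD44 was 4.07-fold lower by CPM without the prior count. At 1.5-fold 10 of the 39 were lower and 4 higher, beside 2141 and 2604 of the 18050 tested genes. With library totals 2 were called higher (SOX9 and VIM), beside 1435 of all tested genes. After centring 4 were (with WIF1 and ATP1B2), beside 2256 of all tested genes. Centring also reversed the sign of the median of the 39, from -0.13 to 0.15, because the median of the other astrocyte genes was itself below 0. It moved the median of all tested genes to 0.27 and took 29 of the 39 members out of their counting intervals. With the narrower held range 9 of the 39 members held, beside 16.6% of all tested genes. Of 270 values of single members under the other alternatives, 1 left its counting interval, SLC1A2 with library totals (-0.35). The filters only set which genes were tested and left the ratios unchanged, so their part of the 270 could not move. Reversal was scored only for the 4 members called lower, and 0 of their values reversed. No paired analysis was possible because the groups hold a single library apiece, which also kept any library from being left out. The 9839105 reads of the sevoflurane library limit the members with the fewest reads, MEGF10, NTSR2 and SERPINA3, whose means were under 5 CPM.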

Other observations

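Several genes that brain tissue usually expresses strongly had few reads under their symbols in both libraries. The astrocyte transcription factor NFIA had 10 control and 8 sevoflurane reads, while its relative NFIB had 3813 and 2381. GLUD1, the glutamate dehydrogenase of the glutamate cycle, had 3 reads in each library. PTPRZ1, a receptor phosphatase of astrocytes and precursors, had 143 and 84 reads. These genes were singled out after their values were seen, and the annotation behind the counts was not tested. MEGF10, with 28 and 19 reads, and NTSR2, with 79 and 37, were the members with the fewest reads.

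HES5, a Notch target of astrocyte progenitors, lay beside the threshold with 256 and 75 reads (log2 ratio -0.998, interval -1.40 to -0.64). ADGRV1, an adhesion receptor, had 10685 and 3636 reads (-0.80, -0.85 to -0.74). TRIL, a coreceptor of innate immunity in glia, had 935 and 364 reads (-0.60, -0.78 to -0.43). All 3 belong to the list of other astrocyte genes and were picked after their values were seen.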
